A study of Mus musculus with 4 samples.

Results

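Classical monocytes were selected among the 31143 barcodes with more than 500 detected genes in 4 single-cell RNA-seq libraries of MC38 tumors, and 2337 barcodes met the selection. They were chosen by measured counts of unique molecular identifiers (UMIs): at least 2 UMIs of Ly6c2, at least 3 of Lyz2 and Chil3 together, at most 1 of Adgre4 and Ace together, and 0 of the complement genes C1qa, C1qb and C1qc, the CD3 chains Cd3d, Cd3e and Cd3g of the T cell receptor, the dendritic cell lectin Cd209a and the tumor cell gene Hmga2. The selection kept 755 of 7292 barcodes of the WT IgG library and 84 of 6840 of WT anti-PD1. From the RAC1-mutant tumors it kept 654 of 8132 barcodes under IgG and 844 of 8879 under anti-PD1.

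MC38 is a mouse colon adenocarcinoma line that was grown under the skin of C57BL/6 mice, with either its own wild-type RAC1 (WT) or a homozygous RAC1 A159V knock-in made with CRISPR-Cas9 and carried as 1 single-cell clone (A159V). Tumors of each line were treated with control IgG or with the anti-PD1 antibody RMP1-14, and each of the 4 groups was measured in 1 library. The mutation was in the tumor cells only, so that the monocytes in every group came from wild-type hosts. Beads had been used to part CD45+ from CD45- cells, which were pooled again in a chosen proportion, so that the share of a cell type among all barcodes follows the mixing, and shares are therefore given among barcodes with a UMI of Ptprc, the gene of CD45. The mice were purchased as young adults of either sex, and the sex, the age at collection and the number of mice behind each library were not given in the sources used here.

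With 1 library per group there was no replicate and no test, and all intervals are 95% intervals that cover counting error only. A gene is counted below as at least 2-fold higher or lower where its log2 ratio of (CPM + 10) was 1 or more, or -1 or less, with CPM the UMIs of a gene among all UMIs of the selected monocytes of a library, scaled to a common total. Where 4 values are given in a row they stand in the order WT IgG and WT anti-PD1, followed by A159V IgG and then A159V anti-PD1. The genes counted were the 5128 with a mean of at least 25 CPM over the 4 libraries. The monocytes held 3332502, 478198, 1962795 and 3079570 UMIs. The WT anti-PD1 library had the fewest monocytes and the deepest, with a median of 5325 UMIs per cell against 2484.5 to 3678 elsewhere. A single cell therefore weighs more there, and the cell with the most UMIs held 5.32% of that library's monocyte UMIs, against 0.789% to 2.44% in the others. At most 1 barcode of the selected monocytes was shared between any 2 libraries.

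Classical monocytes leave the bone marrow under the control of the chemokine receptor Ccr2, enter inflamed tissue and tumors from the blood, and can give rise there to macrophages and to cells that present antigen. They respond strongly to both kinds of interferon: type I interferon induces antiviral genes such as Ifit3 and Isg15, whereas interferon gamma raises, by way of Ciita, the genes of MHC class II. In tumors they can also express enzymes that consume arginine, such as Arg1 and Nos2, which are known to restrain T cells.

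The monocyte identity was examined first with genes that the selection did not use. Vcan, a matrix proteoglycan of classical monocytes, was measured at 529, 600, 809 and 1053 CPM, above the 51.3 to 150 CPM of cells with at least 3 C1q UMIs (C1q macrophages) and the 13.9 to 56.3 CPM of T cells (at least 2 Cd3 UMIs) in the same libraries. Cells with at least 2 UMIs of Adgre4 and Ace together held Vcan at 439, 399, 496 and 504 CPM, so that Vcan set the classical monocytes apart from the C1q macrophages and T cells but not clearly from these. Of the cells with Adgre4 or Ace, 29.4%, 89.0%, 27.3% and 33.2% had no Ptprc UMI, and they are not taken as pure nonclassical monocytes. F13a1, the clotting factor XIII subunit of monocytes and macrophages, was at 219, 343, 327 and 504 CPM. Its levels overlapped those of the C1q macrophages (195 to 392 CPM), so that F13a1 did not set the 2 populations apart. Ccr2 was at 493, 843, 464 and 776 CPM and exceeded its C1q macrophage level (124 to 276 CPM) in every library. In cells thinned to 1500 UMIs, a Vcan UMI was found in 41.0%, 40.2%, 56.4% and 59.0% of monocytes (59.7%, 56.0%, 66.1% and 73.7% before thinning) and in 0.775% to 2.24% of T cells (2.53% to 4.02% before thinning). T cells, with median depths of 2292 to 3815 UMIs, are used as the background for free RNA of genes they do not make themselves, and the thinning left out 24, 2, 53 and 30 monocytes of the 4 libraries.

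Of the genes used for the selection, Ly6c2 was at 2495, 1428, 2316 and 2297 CPM and Chil3, a chitinase-like protein made by classical monocytes, at 603, 209, 824 and 929 CPM. T cells also held Ly6c2 at 649 to 808 CPM, and the selection asked for Lyz2 or Chil3 in addition. The median monocyte had 8, 4, 5 and 6 Ly6c2 UMIs, and 25% of the WT anti-PD1 monocytes lay at the minimum of 2 UMIs, against 11.7% to 16.0% elsewhere. Cells just outside, with 1 Ly6c2 UMI and every other condition met, numbered 117, 43, 157 and 170, and cells just inside, with 2 UMIs, numbered 88, 21, 100 and 135. Plac8, a gene of classical monocytes that the rule did not use, was at 3995, 821, 4635 and 4977 CPM just outside and at 5470, 1483, 6126 and 5995 CPM just inside. T cells held Plac8 at 1183, 600, 1320 and 1344 CPM, so that the cells just outside lay well above that level in 3 libraries and near it in WT anti-PD1.

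The genes that stood most above the C1q macrophages, the neutrophils and the cells with at least 2 UMIs of Adgre4 and Ace, in all 4 libraries, were Ifi209, Ccr2, A330040F15Rik, Plcb1, Mndal, S100a4, Itpr1, Plac8, Tiam1 and Ptpro. Their smallest log2 ratio over these gates and libraries ran from 0.93 for Ptpro to 1.27 for Ifi209. Plac8 was the most abundant of them at 7150, 3051, 7857 and 7920 CPM, against 252 to 1728 CPM in the C1q macrophages. Tiam1, an exchange factor that loads RAC1 with GTP, was at 204, 211, 191 and 217 CPM, and Rac1 itself was at 497, 270, 552 and 526 CPM. The cells with Adgre4 or Ace are of limited use, above all in WT anti-PD1, where 89.0% had no Ptprc UMI and Ly6c2 stood at 5.28 CPM. In the other libraries 27.3% to 33.2% had no Ptprc UMI, against 4.03% to 9.17% of the classical monocytes over all libraries. The cells with Adgre4 or Ace are therefore not called nonclassical monocytes.

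Markers of several other cell types were low in the monocytes, whereas those of fibroblasts, neutrophils and some others were not low in every library. Summed over each marker list, T cell markers (12 genes) were at 7.5 to 31.4 CPM, conventional dendritic cell markers (11 genes) at 29.3 to 54.0 CPM, plasmacytoid dendritic cell markers (8 genes) at 11.0 to 23.9 CPM, mast cell and basophil markers (8 genes) at 0.509 to 4.18 CPM, endothelial markers (7 genes) at 6.27 to 25.2 CPM, platelet markers (5 genes) at 1.53 to 8.44 CPM and red cell markers (5 genes) at 0 to 1.5 CPM. Fibroblast markers (8 genes) were at 85.2, 1466, 1343 and 313 CPM and neutrophil markers (12 genes) at 178, 864, 424 and 387 CPM. Tumor cell markers (8 genes) were at 165, 23, 236 and 56.5 CPM, NK cell markers (9 genes) at 30.0, 157, 102 and 100 CPM, and B and plasma cell markers (8 genes) at 45.3, 31.4, 63.2 and 1356 CPM. The selection itself excluded any UMI of Cd3d, Cd3e and Cd3g in the T cell list. It also excluded Cd209a in the conventional dendritic cell list and Hmga2 in the tumor cell list. These genes could add nothing to the sums, which are therefore low in part by construction. Several of the high sums rested on single cells. In WT anti-PD1, 1 monocyte held 99.3% of the S100a9 UMIs and 1 held 70.3% of the Col1a1 UMIs, and in A159V anti-PD1 1 monocyte held 98.7% of the UMIs of the antibody light chain Igkc. In thinned cells of WT anti-PD1 a Col1a1 UMI was found in 26.8% of monocytes and 26.0% of T cells (64.3% and 50.1% before thinning). Leaving out cells with 3 or more UMIs of fibroblast or tumor genes kept 47 of the 84 WT anti-PD1 monocytes. It kept 735 of 755 in WT IgG, 640 of 654 in A159V IgG and 837 of 844 in A159V anti-PD1. Leaving out cells with a neutrophil UMI kept 44 of 84 in WT anti-PD1, and 499 of 755, 518 of 654 and 601 of 844 in the same other libraries. The part of these markers in the results below was not tested beyond the alternatives that leave out such cells.

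The first question was how large a part of the immune cells these monocytes formed in each group. They made up a similar part of the CD45-expressing cells in 3 libraries and a far smaller part after anti-PD1 in WT tumors. The share among Ptprc+ cells was 15.0% (exact binomial interval 14% to 16.0%, 714 of 4768 cells) in WT IgG and 1.82% (1.45% to 2.27%, 79 of 4336) in WT anti-PD1. It was 13.5% (12.5% to 14.6%, 594 of 4390) with the mutant line under IgG and 13.3% (12.5% to 14.2%, 810 of 6080) under anti-PD1. WT anti-PD1 stood apart from the other 3 libraries, whose intervals overlapped.

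**Figure D1:**
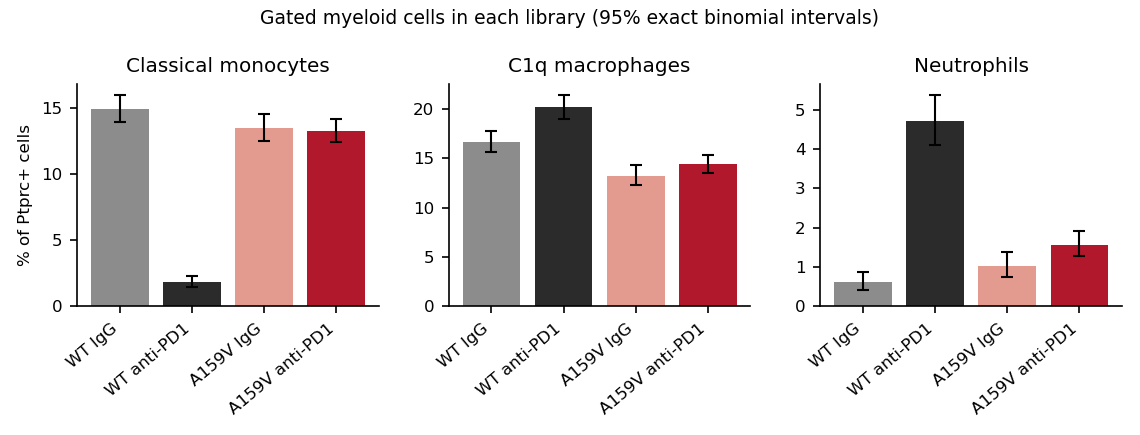
Percent of Ptprc+ cells (y axis) selected as classical monocytes, C1q macrophages and neutrophils in each of the 4 libraries (x axis), with bars from 0 and error bars for 95% exact binomial intervals. Classical monocytes were 15.0% of Ptprc+ cells in WT IgG, 1.82% in WT anti-PD1 and 13.5% and 13.3% in the A159V libraries.

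The WT anti-PD1 share was 0.122 times the WT IgG share (Katz interval 0.0968 to 0.153), and the A159V anti-PD1 share was 0.985 times the A159V IgG share (0.892 to 1.09). Between the IgG libraries the A159V share was 0.904 times the WT share (0.817 to 0.999), and this direction did not hold when cells were thinned to 1500 UMIs before selection, which gave 1.13. Cells with at least 2 UMIs of Adgre4 and Ace together made up 2.37%, 1.48%, 2.19% and 2.62% of Ptprc+ cells. Their WT anti-PD1 share was 0.623 times that of WT IgG (0.460 to 0.844), lower as in the monocytes but by less. The C1q macrophages and the neutrophils did not follow the monocytes. C1q macrophages made up 16.7%, 20.2%, 13.2% and 14.4% of Ptprc+ cells, and neutrophils 0.608%, 4.70%, 1.03% and 1.56%, the WT anti-PD1 share being 7.74 times that of WT IgG (5.25 to 11.4). For each C1q macrophage there were 0.824, 0.0791, 0.807 and 0.832 classical monocytes.

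The lower number in WT anti-PD1 appeared at several steps of the selection. Of the barcodes with 2 or more Ly6c2 UMIs (2410, 989, 1835 and 2447), those that also had 3 or more Lyz2 and Chil3 UMIs numbered 1265, 191, 952 and 1312. A C1q UMI removed 44.5% of these in WT anti-PD1 and 21.6% to 28.0% in the other libraries. The numbers were therefore lower in WT anti-PD1 before the C1q condition was applied, and lower still after it. Whether the C1q UMIs were free RNA or the cells' own was not tested.

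The comparison of WT anti-PD1 with WT IgG asks what the few remaining monocytes expressed after checkpoint blockade in tumors with wild-type RAC1. They had far less of the type I interferon-stimulated genes and of several genes of the classical state, and more of the MHC class II genes, of macrophage genes such as Mrc1, Ctsd and Apoe, and of the arginine enzymes Arg1 and Nos2. In all, 315 of the 5128 genes (6.14%) were at least 2-fold higher and 265 (5.17%) at least 2-fold lower, and the median log2 ratio of all genes was 0.11. Scaling by median-of-ratios size factors moved that median to -0.05 and gave 208 higher and 400 lower. Leaving out, for each gene and library, the cell with the most UMIs of that gene kept 227 of the 315 higher and 263 of the 265 lower genes past 2-fold.

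Type I interferon-stimulated genes were lower throughout. Of 32 genes of the list at the minimum level, 32 had a log2 ratio under 0, 23 were at least 2-fold lower and 0 were higher, with a median log2 ratio of -1.42. Ifit3, which encodes an antiviral protein with tetratricopeptide repeats, was at 788, 48.1, 815 and 443 CPM. Its log2 ratio was -3.78 (-4.27 to -3.29), and WT anti-PD1 was the lowest library by a wide margin. Ifit3b, a neighboring copy with which Ifit3 may exchange reads, was at 196, 10.5, 202 and 106 CPM (log2 ratio -3.33, -3.99 to -2.68). Isg20, an exonuclease that degrades viral RNA, had a log2 ratio of -2.44 (-2.92 to -1.96) and Usp18, which removes ISG15 from proteins and dampens the interferon receptor, one of -2.09 (-2.57 to -1.61).

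Isg15, the ubiquitin-like modifier, and Rsad2, the antiviral enzyme viperin, were chosen after their values were seen. Isg15 was at 2403, 694, 2617 and 1853 CPM (log2 ratio -1.78, -1.93 to -1.62). Rsad2 was at 1367, 475, 1629 and 1176 CPM (-1.51, -1.70 to -1.32). Irf7, the transcription factor that amplifies type I interferon production, was at 886, 274, 856 and 619 CPM (-1.66, -1.90 to -1.41). All 3 were lowest in WT anti-PD1, with A159V anti-PD1 next. The list median lay between -1.61 and -1.30 under every alternative setting tried on it.

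Promoters are shown as background on this list, whose members were chosen as interferon-stimulated genes. The frequency of a motif among them describes the list and is no result on these monocytes. Upstream sequences of 250 bases were taken from RefSeq (GRCm38.p6) and searched on both strands for the interferon-stimulated response element in the form GAAANNGAAA. It was found in 13 of the 27 list members that had an entry (48.1%), against 936 of 27025 genes in all (3.46%). The other members with an entry, Isg20 and Irf7 among them, held no match. Of the interferon gamma list, 12 of the 20 members with an entry (60%) held it too. The gamma-activated form TTCNNNGAA was found in 4 of 27 type I genes (14.8%), in 9 of 20 interferon gamma genes (45%) and in 2197 of all genes (8.13%). These are matches of letters and not measured binding. The 200 bases before the start of 4 members that hold a match follow, 5′ to 3′ on the strand of the gene. Every match to GAAANNGAAA on either strand is in capitals. The Ifit3 and Ifit3b windows, on chr19:34583329-34583528 and chr19:34607757-34607956 of the plus strand, each hold 2 separate matches. The window of Isg15, on chr4:156200819-156201018 of the minus strand, holds 3 overlapping matches, and that of Rsad2, on chr12:26456453-26456652 of the minus strand, holds 1.
Ifit3: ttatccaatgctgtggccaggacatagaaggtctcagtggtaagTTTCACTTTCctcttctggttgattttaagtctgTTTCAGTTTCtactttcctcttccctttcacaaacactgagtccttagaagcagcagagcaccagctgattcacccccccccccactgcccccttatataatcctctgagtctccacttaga
Ifit3b: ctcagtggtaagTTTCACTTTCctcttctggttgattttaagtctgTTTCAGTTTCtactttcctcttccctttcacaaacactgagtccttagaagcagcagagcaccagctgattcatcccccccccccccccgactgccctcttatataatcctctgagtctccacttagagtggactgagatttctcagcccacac
Isg15: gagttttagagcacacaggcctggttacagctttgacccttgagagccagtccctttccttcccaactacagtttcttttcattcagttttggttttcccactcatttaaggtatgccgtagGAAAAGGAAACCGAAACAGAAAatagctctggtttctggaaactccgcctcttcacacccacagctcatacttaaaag
Rsad2: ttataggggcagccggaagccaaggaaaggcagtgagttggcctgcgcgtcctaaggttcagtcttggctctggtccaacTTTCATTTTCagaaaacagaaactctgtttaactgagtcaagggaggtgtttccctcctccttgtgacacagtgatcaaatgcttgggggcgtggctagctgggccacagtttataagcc

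Lower levels of these genes were also found in other cells of the same library. The median log2 ratio of the same 32 genes between WT anti-PD1 and WT IgG was -1.59 in C1q macrophages, with 27 at least 2-fold lower, and -1.41 in T cells, with 24 at least 2-fold lower.  Over single cells thinned to 1500 UMIs, the summed UMIs of the list had a median of 36, 10, 40 and 27 in the monocytes and of 6, 1, 6 and 5 in T cells. An Ifit3 UMI was found in 56.2%, 6.10%, 61.6% and 36.2% of thinned monocytes (74.3%, 16.7%, 70.6% and 52.3% before thinning), against 23.1%, 3.88%, 23.5% and 19.5% of thinned T cells. In WT anti-PD1 the T cell share before thinning was 7.22%. The exact binomial intervals of the thinned WT anti-PD1 monocytes (2.01% to 13.7%) and T cells (2.73% to 5.32%) overlapped. T cells make Ifit3 under interferon themselves, so that their share is a comparison here and no measure of free RNA.

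**Figure D2:**
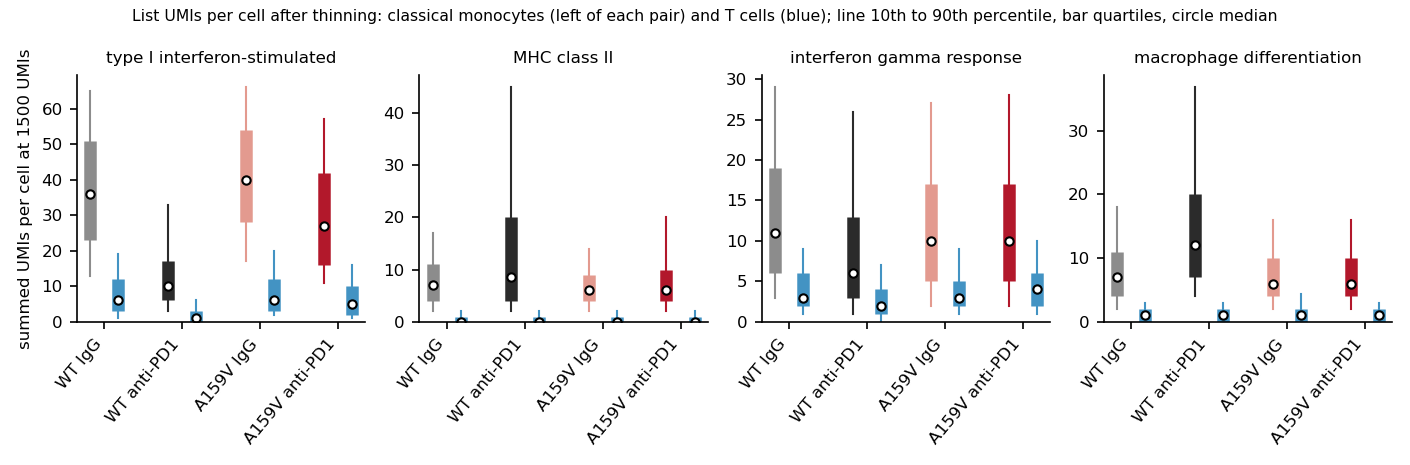
UMIs of 4 gene lists summed in each cell after thinning to 1500 UMIs (y axis) in classical monocytes (left of each pair) and T cells (blue) of each library (x axis), with circles for medians, bars for quartiles and lines from the 10th to the 90th percentile. The monocyte median of the type I interferon-stimulated list was 10 in WT anti-PD1 and 27 to 40 in the other libraries.

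Genes of the classical state were partly lower. Of 20 classical monocyte genes, 5 were at least 2-fold lower and 0 higher, with a median log2 ratio of -0.58. Without Ly6c2, Chil3 and Lyz2, which the selection used, 4 of 17 were at least 2-fold lower and the median was -0.48. The 5 were Chil3 (log2 ratio -1.49, -1.76 to -1.21), Ms4a4c, a membrane protein of the MS4A family (-1.43, -1.59 to -1.27), the interferon-inducible Ifi27l2a (-1.32, -1.44 to -1.21), Plac8 (-1.23, -1.30 to -1.15) and the calcium-binding S100a4 (-1.13, -1.26 to -1.01). Ms4a4c and Ifi27l2a are known to respond to interferon. Vcan (0.18, 0.00 to 0.36), F13a1 (0.62, 0.39 to 0.86) and Ccr2 (0.76, 0.61 to 0.92) had ratios above 0. The list thus held members on both sides of 0, 7 above and 13 below.

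Macrophage genes were higher. Of 21 macrophage differentiation genes, 6 were at least 2-fold higher and 0 lower, with a median log2 ratio of 0.67. Mrc1, the mannose receptor CD206, was at 43.2, 801, 53.0 and 123 CPM (log2 ratio 3.93, 3.69 to 4.17). An Mrc1 UMI was found in 35.4% of thinned WT anti-PD1 monocytes (54.8% before thinning) against 3.66% of T cells (7.33% before thinning). Its level remained under that of the C1q macrophages of the same library (1861 CPM). Ctsd, a lysosomal protease (log2 ratio 1.54, 1.34 to 1.73), and Apoe, the lipid carrier of tissue macrophages (1.16, 1.03 to 1.29), were higher as well. Abca1, which exports cholesterol, was at 92.4, 617, 92.2 and 183 CPM (2.61, 2.40 to 2.83).

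Arginine enzymes and mediators were also higher. Arg1, which hydrolyzes arginine, was at 65.1, 878, 43.3 and 287 CPM (log2 ratio 3.56, 3.35 to 3.78), and a UMI was found in 5.34%, 28.0%, 2.66% and 10.2% of thinned monocytes (7.68%, 36.9%, 3.98% and 13.6% before thinning) against at most 2.15% of T cells (4.64% before thinning). Nos2, the inducible nitric oxide synthase, was at 23.4, 174, 42.8 and 174 CPM (2.46, 2.09 to 2.83). Both enzymes were highest in the 2 anti-PD1 libraries. Of 26 myeloid suppressor genes 10 were at least 2-fold higher and 0 lower, with a median log2 ratio of 0.42, which was 0.03 when the top cell of each gene was left out. The 10 included S100a8 and S100a9, whose ratios of 3.33 and 3.84 were -0.28 and -0.65 without that cell. Of 15 inflammatory mediators 6 were at least 2-fold higher and 2 lower, with a median of 0.80 that lay between 0.23 and 0.94 over the alternatives. Among them were Tnf at 489, 1113, 317 and 427 CPM (1.17, 1.03 to 1.31, and under 2-fold in 5 of 13 alternatives, the lowest 0.73) and the interleukin 1 antagonist Il1rn (1.12, 0.98 to 1.25), while Il18 had a log2 ratio of -1.72.

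Slc7a11, the cystine transporter of the oxidative stress response, was at 170, 790, 226 and 378 CPM (log2 ratio 2.16, 1.97 to 2.34), and Hmox1, which degrades heme, at 321, 807, 282 and 408 CPM (1.30, 1.14 to 1.47). Of 18 genes of heme, iron and oxidative stress, 4 were at least 2-fold higher and 1 lower. Egr1, an immediate early transcription factor, was at 372, 931, 255 and 311 CPM (1.30, 1.14 to 1.45), and 4 of 19 immediate early genes were at least 2-fold higher and 1 lower. Of 20 genes of pattern recognition and NF-kappaB signaling, 5 were at least 2-fold higher and 0 lower, with a median of 0.49. Of 19 genes of the RAC family and NADPH oxidase, 1 was past 2-fold, a share near that over all genes. It was Pak1, a kinase that RAC1 activates (log2 ratio 1.10), of whose 34 UMIs in WT anti-PD1 52.9% were in 1 cell, and its ratio was 0.28 without the top cells and 0.03 to 1.66 over the alternatives.

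MHC class II genes were higher in part of the cells. Of 9 genes of the list, 4 were at least 2-fold higher and 0 lower, with a median log2 ratio of 0.69. H2-Aa, an MHC class II alpha chain, was at 416, 1527, 213 and 601 CPM (log2 ratio 1.85, 1.72 to 1.98). Its order was the same for H2-Ab1 (314, 1167, 164 and 459 CPM), H2-Eb1 (381, 1027, 214 and 503 CPM) and the invariant chain Cd74 (954, 3285, 570 and 1153 CPM), with WT anti-PD1 highest and A159V IgG lowest. An H2-Aa UMI was found in 17.6%, 39%, 9.65% and 18.7% of thinned monocytes (24.5%, 39.3%, 11.8% and 25.5% before thinning) and in 4.52% to 6.67% of T cells (4.60% to 9.65% before thinning). The summed MHC class II UMIs of thinned monocytes had medians of 7 and 8.5 in WT IgG and WT anti-PD1 and 90th percentiles of 17 and 44.9. The 2 libraries thus differed most in their upper cells.

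Interferon gamma genes had no common direction. Of 23 genes, 3 were at least 2-fold higher and 1 lower, with a median log2 ratio of -0.03. Cxcl9, a chemokine that draws T cells and is induced by interferon gamma, was at 152, 1075, 29.5 and 102 CPM (log2 ratio 2.74, 2.57 to 2.92), but 1 cell held 69.8% of its UMIs in WT anti-PD1 and the ratio was 1.31 without the top cells and 0.19 without cells holding fibroblast or tumor UMIs, with 3 of 13 alternatives under 2-fold. Cxcl10, induced by both kinds of interferon, was at 3410, 1278, 3563 and 2571 CPM (-1.41, -1.53 to -1.29). The higher Cxcl9 level in WT anti-PD1 thus depended on few cells. Of 17 chemokine ligands, 5 were at least 2-fold higher and 2 lower. Cxcl1, a neutrophil attractant, was at 81.0, 358, 103 and 64.3 CPM (2.01, 1.75 to 2.27), Ccl8 had a ratio of 2.44, and Ccl24, with a ratio of 3.64, was detected in 6 of the 84 cells with 69.4% of its UMIs in 1.

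Among all genes outside the gate and not more than 5 times higher in another gated cell type, Tnc, Mrc1, Gzmc, Ccl24, Arg1, Ccdc162, Gm15726, Cxcl9, Slc7a2 and Abca1 had the highest ratios. Gzmc, a granzyme of killer lymphocytes, had 98.8% of its UMIs in 1 cell and turned to -0.09 without it. Ifit3, Ifit3b, Ifit1bl1, Isg20, Brinp3, Nmral1, Usp18, Atp5g1 and Fdps were among those with the lowest. Fdps, an enzyme of cholesterol synthesis, was at 61.2, 8.36, 44.8 and 26.3 CPM (log2 ratio -1.96, -2.62 to -1.29), and Atp5g1, a subunit of the mitochondrial ATP synthase, at 259, 58.6, 328 and 195 CPM (-1.97, -2.44 to -1.5).

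**Figure D3:**
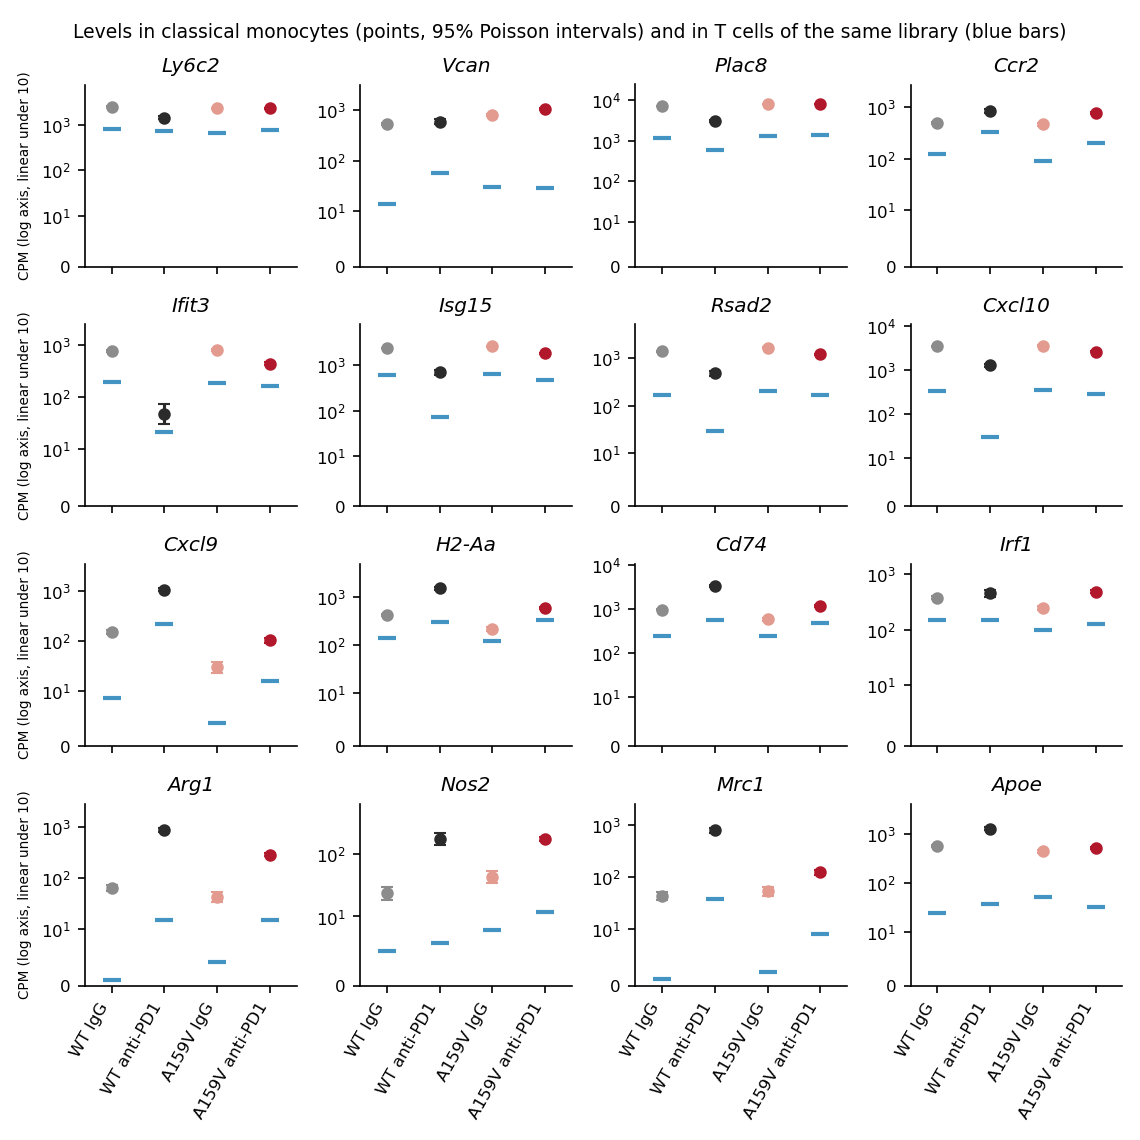
Levels of 16 genes (y axis, CPM on a log axis that is linear under 10) in the classical monocytes of each library (x axis), as points with 95% Poisson intervals, and in T cells of the same library (blue bars). Ifit3 in WT anti-PD1 monocytes was at 48.1 CPM and in T cells at 21 CPM, whereas Arg1, Mrc1 and H2-Aa were highest in WT anti-PD1.

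The comparison of A159V anti-PD1 with A159V IgG asks the same of the tumors with mutated RAC1. Here the share of monocytes was 0.985 times that under IgG, 0 of 32 type I interferon-stimulated genes were past 2-fold, and Arg1, Nos2, Cxcl9 and 4 of 9 MHC class II genes were at least 2-fold higher. Of 5128 genes, 35 (0.683%) were at least 2-fold higher and 57 (1.11%) at least 2-fold lower, around a median of 0.05. The lower count rested on few cells: it was 8 after predicted doublets were removed, 6 without the deepest 5% of cells and 7 in cells thinned to 1500 UMIs, while the higher count was 33, 28 and 33. Higher genes were 38.0% of the calls and 80.5%, 82.4% and 82.5% under these settings. The comparison of the IgG libraries shares a control library with each treatment comparison, so that values are given side by side and no overlap between comparisons is counted.

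Arg1 was higher in A159V anti-PD1 with a log2 ratio of 2.48 (2.21 to 2.75) and Nos2 with 1.80 (1.52 to 2.07). A Nos2 UMI was found in 3.66% of thinned A159V IgG monocytes and 12.0% of A159V anti-PD1 monocytes (6.12% and 18.0% before thinning), against 0 of 447 T cells (up to 0.671% by a floor of 3 counts, with an exact binomial upper limit of 0.822%) and 1.05% of T cells. Before thinning the T cell shares were 1.36% and 2%. Cxcl9 had a ratio of 1.5 (1.19 to 1.81), which was 1.64 without the top cells. Gbp2, a guanylate-binding protein of the interferon gamma response, was at 325 CPM in A159V IgG and 811 CPM in A159V anti-PD1 (1.29, 1.17 to 1.42). Of 23 interferon gamma genes Cxcl9, Gbp2 and Nos2 were past 2-fold, 0 were lower, and the median was 0.40.

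Of 9 MHC class II genes, 4 were at least 2-fold higher and 0 lower, with a median of 0.68. H2-Aa (log2 ratio 1.45, 1.30 to 1.60), H2-Ab1 (1.44, 1.27 to 1.60), H2-Eb1 (1.20, 1.05 to 1.35) and Cd74 (1.0, 0.91 to 1.10) were the 4. Ciita, the transcription factor that switches these genes on, was at 6.62 and 28.3 CPM, and its levels in T cells were 9.39 and 14.4 CPM. In thinned monocytes the median sum of the list was 6 in both libraries and the 90th percentiles were 14 and 20, so that here too the upper cells differed more.

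Type I interferon-stimulated genes had a median log2 ratio of -0.33, with 28 of 32 under 0 but 0 at least 2-fold lower. Ifit3 had a ratio of -0.87 (-0.97 to -0.76) and the viral budding inhibitor Bst2 one of -0.88 (-0.96 to -0.80). Ccr2 (0.73, 0.62 to 0.84), F13a1 (0.61, 0.48 to 0.74) and Vcan (0.38, 0.29 to 0.46) did not pass 2-fold, and 0 of 20 classical monocyte genes were past 2-fold. Pf4, a platelet chemokine that macrophages also make, was at 38.2 and 158 CPM (1.80, 1.51 to 2.08) and Mrc1 at 53.0 and 123 CPM (1.08, 0.81 to 1.35). Of 21 macrophage differentiation genes 2 were higher and 2 lower.

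Among the other genes with the highest ratios were Ifitm1, an interferon-induced membrane protein (204.8 and 660.5 CPM, log2 ratio 1.64, 1.49 to 1.79), Fbxl5, which senses iron (1.56, 1.36 to 1.77), the growth factor Nrg1 (1.43, 1.21 to 1.66) and the membrane glycoprotein Pdpn (1.30, 0.97 to 1.63). The lowest were Hist1h1b, Tpm1, Hes1, Pebp1, Gdf15, Ebna1bp2, Snhg9, Bcl2a1a, Erh and Nudc, of which Hist1h1b (-1.79), Tpm1 (-1.57) and Pebp1 (-1.22) were 0.31, 0.10 and 0.04 after predicted doublets were removed. Of 8 cell cycle genes 4 were at least 2-fold lower. Their median was -0.94 and lay between -1.14 and -0.0086 over the alternatives. Top2a, which untangles DNA in dividing cells, went from -1.77 to 0.02 after predicted doublets were removed.

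**Figure D4:**
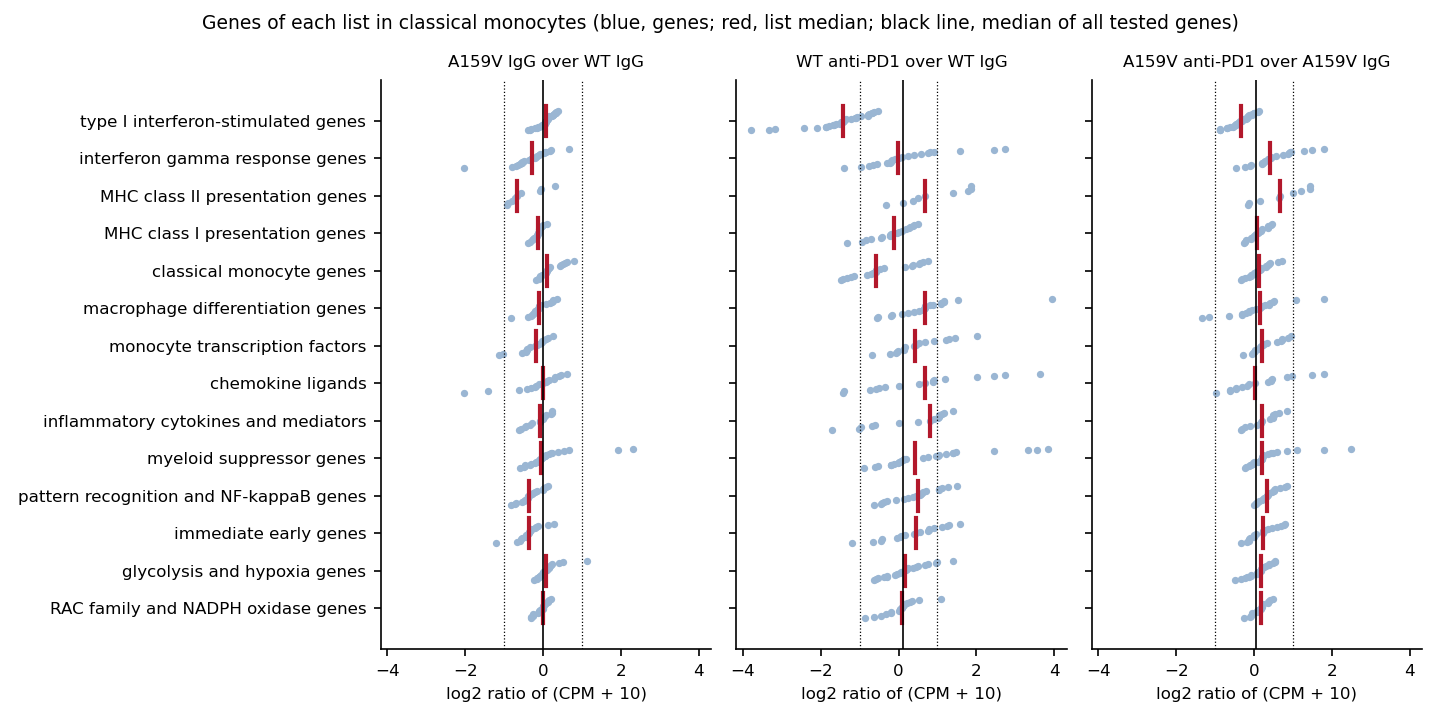
Log2 ratio of (CPM + 10) (x axis) of each gene (blue points) of 14 gene lists (y axis) in the classical monocytes for the 3 comparisons, with red bars for list medians, a black line for the median of all 5128 genes and dotted lines at 2-fold. The type I interferon-stimulated list lay at -1.42 between the WT libraries, -0.33 between the A159V libraries and 0.08 between the IgG libraries.

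The comparison of A159V IgG with WT IgG asks how the monocytes of tumors under control IgG differed with the genotype of the tumor cells. The profiles were close: 29 genes (0.566%) were at least 2-fold higher and 15 (0.293%) at least 2-fold lower, around a median of -0.01. Monocytes from A159V tumors had at least 2-fold less Cxcl9, Fosb, Nr4a2, Nr4a3 and Klf4 and at least 2-fold more Slpi and Hilpda, while 0 of 9 MHC class II genes and 1 of 19 immediate early genes were past 2-fold. Klf4 was under 2-fold in 5 of 13 alternatives and Nr4a3 in 2 of 13. The higher count was 6 after predicted doublets were removed, 7 without the deepest 5% of cells and 9 without cells that held 3 or more UMIs of fibroblast or tumor genes, while the lower count was 23, 19 and 15. Higher genes were 65.9% of the calls and 20.7%, 26.9% and 37.5% under these settings.

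Cxcl9 was at 152 CPM in WT IgG and 29.5 CPM in A159V IgG (log2 ratio -2.03, -2.33 to -1.73). Of thinned monocytes, 8.48% and 1.5% had a UMI (11.4% and 2.60% before thinning). This compares with 0.646% of T cells and 0 of 447 T cells, with the same limits (1.57% and 1.02% before thinning). Leaving out the top cells gave a log2 ratio of -2.09. Gbp2 (-0.79, -0.92 to -0.67) and Irf1 (-0.60, -0.74 to -0.45) did not pass 2-fold, and the median of 23 interferon gamma genes was -0.27. Of 9 MHC class II genes 8 were under 0 and 0 past 2-fold, with a median of -0.67. H2-Aa had a ratio of -0.93 (-1.08 to -0.78) and Cd86, a ligand that costimulates T cells, one of -0.69 (-0.79 to -0.59). H2-Aa lay between -0.99 and -0.38 over the alternatives, so that its size was less certain than the counting interval says.

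Fosb, a partner of JUN in the AP-1 factor, was at 238, 406, 96.8 and 174 CPM (A159V IgG over WT IgG -1.22, -1.42 to -1.01). The nuclear receptors Nr4a2 (163, 324, 67.3 and 157 CPM, -1.17, -1.41 to -0.92) and Nr4a3 (-1.14, -1.43 to -0.86) and Klf4, a factor of monocyte differentiation (155, 372, 70.8 and 146 CPM, -1.03, -1.27 to -0.79), had the same order of libraries, with A159V IgG lowest. Of 19 immediate early genes 17 were under 0 and 1 was at least 2-fold lower, with a median of -0.37, and of 20 genes of pattern recognition and NF-kappaB signaling 16 were under 0, with a median of -0.36. Tlr2, a receptor for bacterial lipoproteins, had a ratio of -0.81 (-1.03 to -0.60). Tissue dissociation is known to raise immediate early genes, and its part in these values was not tested.

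Slpi, a secreted inhibitor of leukocyte proteases, was at 343, 399, 874 and 766 CPM (A159V IgG over WT IgG 1.32, 1.22 to 1.43) and stayed between 1.21 and 1.35 over the alternatives. Hilpda, a lipid droplet protein induced by hypoxia, was at 179, 293, 406 and 368 CPM (1.14, 0.99 to 1.28). Slpi was higher in both A159V libraries than in both WT libraries. Hp, the hemoglobin scavenger haptoglobin, was at 148, 96.2, 266 and 227 CPM (0.80, 0.63 to 0.97) and Mmp8, a collagenase of neutrophils and young monocytes, at 21.6, 23, 54.0 and 75.3 CPM (1.02, 0.69 to 1.34). Both were likewise higher in the 2 A159V libraries than in the 2 WT libraries. Neutrophil marker sums, which include Mmp8, were 178, 864, 424 and 387 CPM. Over the alternatives, which include leaving out cells with a neutrophil UMI, Hp lay between 0.72 and 0.84 and Mmp8 between 0.88 and 1.41. The part of neutrophil RNA in Slpi, Hp and Mmp8 was not tested further.

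The remaining highest and lowest genes were mostly low or held by few cells. Gzmc and Gzma had ratios of 3.19 and 2.33 and were 1.80 and 0.23 without their top cells, and Hist1h1b was 1.5 and 0.87. Ms4a4a (0.97) and Cd38, an enzyme that consumes NAD (0.88), were under 2-fold, as was Dynll2 (0.92). Snhg9 was past it (1.03) but under 2-fold in 8 of 13 alternatives. Tns3, an adhesion protein, and Zc3h12c, which degrades inflammatory mRNAs, had ratios of -1.28 and -1.24, and the unnamed transcripts Gm15726, Gm17749 and Gm49662 had ratios of -1.32, -1.27 and -1.15. Ccl8 (-1.42) went to -0.09 without the top cells, since 1 cell held 81.2% of its UMIs in WT IgG. Brinp3 (-1.19) went to 0.16 without the deepest 5% of cells. Of 32 type I interferon-stimulated genes 0 were past 2-fold, with a median of 0.08, and of 19 genes of the RAC family and NADPH oxidase 0 were past 2-fold, with a median of -0.00126.

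The lists that differed most were compared with other cells of the same libraries. The MHC class II median was -0.92, 0.67 and 0.85 in C1q macrophages between the IgG libraries, after anti-PD1 in WT tumors and after anti-PD1 in A159V tumors, against -0.67, 0.69 and 0.68 in the monocytes. In T cells it was -0.02, 0.32 and 0.47. The immediate early genes had a median of -0.18 in C1q macrophages and -0.24 in T cells between the IgG libraries. The MHC class II medians thus had the same signs in the monocytes and the C1q macrophages. In neutrophils they were 0.73, 0.85 and 0.67, of the opposite sign between the IgG libraries. The neutrophils numbered only 48 in WT IgG and 54 in A159V IgG, and the median of all counted genes between these was itself 0.36. The sign in neutrophils is therefore uncertain. In the cells with Adgre4 or Ace the MHC class II medians were 0.08, -1.95 and -0.22. Whether any list differed between cell types was not tested.

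**Figure D5:**
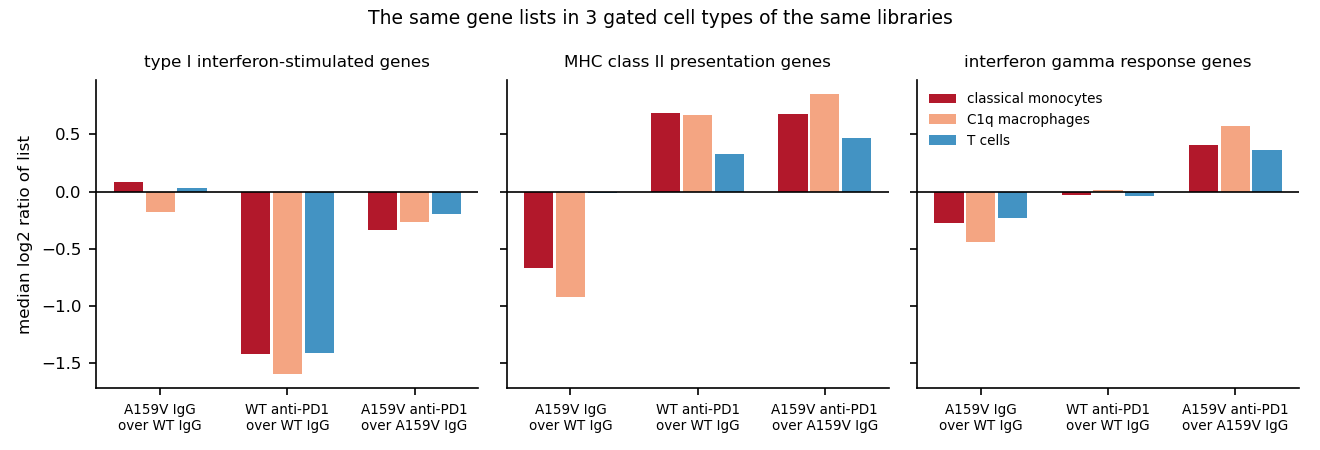
Median log2 ratio of (CPM + 10) (y axis) of 3 gene lists for the 3 comparisons (x axis), with bars from 0 for classical monocytes, C1q macrophages and T cells of the same libraries. The type I interferon-stimulated list was at -1.42, -1.59 and -1.41 in the 3 cell types between WT anti-PD1 and WT IgG.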

How the data were processed

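Raw UMI counts per gene and cell were taken as the authors deposited them, introns included, and were made by Cell Ranger (version 7.2.0 in the file headers; the submitters' processing notes list 5.0.1, and mm10) and before the study removed background RNA and doublets. Each of the 4 groups was 1 library. Barcodes with more than 500 genes were gated on marker UMIs. Other gates had no Hmga2 and no Cd3 UMI and were C1q macrophages (at least 3 C1q UMIs) and neutrophils (at least 10 UMIs of S100a8 and S100a9, at least 1 of Csf3r or Cxcr2, no C1q). T cells had at least 2 Cd3 UMIs and none of Csf1r, C1q or Hmga2. UMIs of the gated cells were summed and scaled to CPM. The members and gene lists were chosen with earlier results of these data known. Log2 ratios used a pseudocount of 10 CPM. Intervals were exact binomial for shares, Katz for folds of shares, Poisson for levels and delta-method for log2 ratios, all at 95%, for counting error only. Named were the markers, the 3 list members with the largest ratios in each comparison, the 10 highest and 10 lowest genes of each comparison, leaving out mitochondrial, ribosomal, hemoglobin and antigen receptor genes, genes of the gates and genes over 5 times higher in another gate of at least 50 cells, and the 10 genes most above other gates. Other genes named were chosen after their values were seen. Predicted doublets (0.8% per 1000 cells, from simulated doublets among nearest neighbors) stayed in the main values and were removed in an alternative. Alternatives without cells holding fibroblast or tumor UMIs and without each gene's top cell were chosen after seeing the data. The scripts, in Python 3.11.15 with numpy 2.4.6, scipy 1.17.1, pandas 2.3.3 and scikit-learn 1.9.0, were tested on simulated data. Some genes are not reported here.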

Additional observations from a re-analysis of the deposited data

Results flagged for a closer look

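Tnc, which encodes the matrix glycoprotein tenascin C, drew attention because its log2 ratio was 4.11 between WT anti-PD1 and WT IgG and -2.25 between A159V anti-PD1 and A159V IgG, in opposite directions under the same treatment. The difference between the 2 ratios was not tested, since each group had 1 library. In WT anti-PD1, 88 UMIs were found in 2 monocytes, with 98.9% of them in 1 cell, and in A159V IgG, 80 UMIs were found in 9 monocytes. Without the top cell of each library the ratios were 0.16 and -1.83.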

How the results depend on the processing

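The share of classical monocytes among Ptprc+ cells in WT anti-PD1 over WT IgG was 0.159 with a Ly6c2 minimum of 1 UMI, 0.0744 when cells were thinned before selection and 0.0699 without cells holding fibroblast or tumor UMIs. A159V IgG over WT IgG was 0.777 among all barcodes and turned to 1.13 after thinning. A159V anti-PD1 over A159V IgG was 1.18 among all barcodes and 0.856 after thinning. The other 20 of 27 alternative folds moved by less than the main interval allows.

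Counts of genes past 2-fold moved by over 1.5 times in 34 of 90 alternatives. For A159V IgG over WT IgG the higher count (29) was 6 without predicted doublets, 12 with the mean of each cell's own CPM, 17 in thinned cells, 81 with no minimum level, 8 with a mean of at least 100 CPM, 7 without the deepest 5% of cells, 9 without cells holding fibroblast or tumor UMIs and 13 without each gene's top cell. Its lower count (15) was 23 with a Ly6c2 minimum of 3 UMIs, 23 without doublets, 39 with a pseudocount of 1 CPM, 26 in thinned cells, 23 with no minimum level and 7 at 100 CPM. For WT anti-PD1 over WT IgG the higher count (315) was 533 in thinned cells, 208 with median-of-ratios scaling, 561 with no minimum level and 120 at 100 CPM, and the lower count (265) was 407, 400, 429 and 126. For A159V anti-PD1 over A159V IgG the higher count (35) was 55 with a pseudocount of 1 CPM and 21 at 100 CPM. Its lower count (57) was 8 without doublets, 95 with a pseudocount of 1 CPM, 7 with the mean of cells, 7 in thinned cells, 135 with no minimum level, 10 at 100 CPM, 34 without cells holding a neutrophil UMI, 6 without the deepest 5% of cells, 6 without fibroblast or tumor UMIs and 33 without top cells.

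Of 2886 alternative log2 ratios of named genes, 45 had the sign opposite to the reported value, 28 of them for values reported under 2-fold. The 17 for values reported past 2-fold follow. In WT anti-PD1 over WT IgG, Gzmc was -0.44 with a Ly6c2 minimum of 3 UMIs, -0.10 without doublets, -0.14 without the deepest 5% of cells and -0.091 without top cells. S100a9 was -0.61 and S100a8 -0.043 with a Ly6c2 minimum of 3 UMIs, and -0.65 and -0.28 without top cells. In A159V anti-PD1 over A159V IgG without doublets, Hist1h1b was 0.31, Tpm1 0.10, Pebp1 0.038, Cd63 0.031 and Top2a 0.016, Tpm1 was 0.047 without the deepest 5% of cells and Cd63 was 0.10 without fibroblast or tumor UMIs. Brinp3 in A159V IgG over WT IgG was 0.16 and 0.20 under these last 2 settings. Of the 24 list medians of size 0.3 or more, 0 of 312 alternative values had the opposite sign. Apart from settings whose construction changes the cells or genes counted, the cause was not tested.

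The main limits are the single library per group, so that mice, tumors and library preparation cannot be told apart from the groups, and the number of WT anti-PD1 monocytes, 84. The libraries also differed in their other cells. Tumor cells (at least 2 Hmga2 UMIs and no Ptprc) numbered 746, 91, 1227 and 1244. Fibroblasts (at least 20 UMIs of Col1a1, Col1a2 and Col3a1 together and no Ptprc or Hmga2) numbered 187, 1405, 163 and 171. The part of this difference in the WT anti-PD1 results was not tested. No background RNA was subtracted. No paired analysis was possible because each group had 1 library.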
